A study of Mus musculus with 86 samples.

Results

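SOX2 regions that gave a peak in the first of 2 mitotic libraries and none in the second were examined in mouse embryonic stem cells. The starting set was every merged interval that both asynchronous SOX2 libraries had called. Members were chosen by the SOX2 peak calls of the mitotic libraries, with an overlap of at least 1 bp with mitotic replicate 1 and no overlap with mitotic replicate 2. Mitotic replicate 1 called 3.37% of the regions and mitotic replicate 2 called 0.755%. The rule found 1391 of 51672 regions, or 2.69%. A further 349 regions were called in both mitotic libraries, 41 in mitotic replicate 2 only, and 49891 in neither.

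The cells were of strain 129S5/SvEvBrd, grown on gelatin in medium with serum and leukemia inhibitory factor (mLIF). Mitotic cells had been held for 6 h in 100 ng/ml nocodazole, which stops spindle formation, and were collected by shaking them off the dish, while asynchronous cells were untreated. Binding was mapped by sequencing immunoprecipitated chromatin (ChIP-seq), with antibodies to SOX2 (R&D Systems AF2018) and CTCF (Abcam ab70303), with 2 mitotic and 2 asynchronous libraries each. The sources used here give neither the purity of the mitotic cells nor whether replicates came from separate cultures, so differences between replicates may be technical.

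SOX2 is a transcription factor that bends DNA through its HMG domain and works with OCT4 in the pluripotency network. During mitosis transcription falls to a low level and many factors leave the condensed chromosomes, while a factor that stays on some of its sites is said to bookmark them. CTCF is a zinc finger protein that holds insulators and the anchors of chromatin loops.

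Gene starts were where most members lay, so promoters are shown first. Each sequence runs from 250 bases before to 50 bases after the start, from RefSeq on GRCm38.p6. Capitals mark a short SOX-type motif, CTTTGT or CATTGT, on either strand (ACAAAG or ACAATG in the other reading). Bases are counted from 1 at the left end. The first 5 genes have the members of highest fold in mitotic replicate 1 among those within 1 kb of an outer boundary of a gene in the gene table. Members at starts inside a gene, such as those of Spin1 and Mesd, do not enter that count. Klf4 and Nr5a2, regulators of the pluripotent state, were chosen after their values were seen.
Adnp: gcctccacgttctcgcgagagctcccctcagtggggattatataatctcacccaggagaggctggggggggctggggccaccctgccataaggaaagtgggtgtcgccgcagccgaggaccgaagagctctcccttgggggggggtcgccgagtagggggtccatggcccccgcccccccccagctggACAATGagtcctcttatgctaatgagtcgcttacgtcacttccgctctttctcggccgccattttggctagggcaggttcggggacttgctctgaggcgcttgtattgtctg
Map3k9: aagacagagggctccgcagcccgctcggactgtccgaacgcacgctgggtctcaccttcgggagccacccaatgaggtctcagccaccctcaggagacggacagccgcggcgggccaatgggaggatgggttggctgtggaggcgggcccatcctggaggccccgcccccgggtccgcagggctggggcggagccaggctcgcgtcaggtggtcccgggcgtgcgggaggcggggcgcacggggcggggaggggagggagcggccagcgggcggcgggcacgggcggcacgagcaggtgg
H4c11: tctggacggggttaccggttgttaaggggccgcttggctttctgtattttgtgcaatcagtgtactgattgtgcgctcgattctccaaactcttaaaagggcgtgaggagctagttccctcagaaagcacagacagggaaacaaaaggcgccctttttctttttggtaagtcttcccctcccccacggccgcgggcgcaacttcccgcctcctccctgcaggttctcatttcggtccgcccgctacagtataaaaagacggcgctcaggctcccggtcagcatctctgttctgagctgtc
Trp53inp2: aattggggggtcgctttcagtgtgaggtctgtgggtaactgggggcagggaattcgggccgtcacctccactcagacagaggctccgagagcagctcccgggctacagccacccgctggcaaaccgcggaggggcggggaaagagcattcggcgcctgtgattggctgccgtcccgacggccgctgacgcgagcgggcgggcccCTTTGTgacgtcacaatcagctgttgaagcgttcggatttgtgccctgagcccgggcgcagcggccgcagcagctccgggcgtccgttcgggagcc
Arhgdia: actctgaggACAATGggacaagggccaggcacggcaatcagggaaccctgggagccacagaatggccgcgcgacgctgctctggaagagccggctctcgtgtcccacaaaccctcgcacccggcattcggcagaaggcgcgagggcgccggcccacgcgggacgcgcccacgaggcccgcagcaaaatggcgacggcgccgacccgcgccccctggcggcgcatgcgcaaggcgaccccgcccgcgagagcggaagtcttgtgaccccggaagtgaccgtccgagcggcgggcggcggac
Klf4: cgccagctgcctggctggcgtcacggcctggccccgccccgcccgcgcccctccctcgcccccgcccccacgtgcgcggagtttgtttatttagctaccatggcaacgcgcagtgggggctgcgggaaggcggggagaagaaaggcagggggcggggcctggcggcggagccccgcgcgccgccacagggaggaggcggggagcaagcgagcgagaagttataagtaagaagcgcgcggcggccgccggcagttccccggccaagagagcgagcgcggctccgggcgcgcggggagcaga
Nr5a2: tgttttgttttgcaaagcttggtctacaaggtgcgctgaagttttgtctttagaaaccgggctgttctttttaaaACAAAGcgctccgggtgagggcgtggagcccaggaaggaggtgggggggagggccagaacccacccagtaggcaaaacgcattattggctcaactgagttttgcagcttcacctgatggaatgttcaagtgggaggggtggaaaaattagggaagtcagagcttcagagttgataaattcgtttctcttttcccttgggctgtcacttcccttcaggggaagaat

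The Adnp window was at chr2:168207063-168207362 on the minus strand, with ACAATG at base 189, and the mitotic summit lay 98 bp upstream of the start. Map3k9 (chr12:81781121-81781420, minus strand) and H4c11 (chr13:21734784-21735083, plus strand) held none of these motifs. Trp53inp2 (chr2:155381606-155381905, plus strand) held CTTTGT at base 205 of the window, and its summit was 21 bp downstream of the start. Arhgdia (chr11:120581575-120581874, minus strand) held ACAATG at base 10. Klf4 (chr4:55532426-55532725, minus strand) held none, and Nr5a2 (chr1:136953581-136953880, minus strand) held ACAAAG at base 76. These windows also differed in base composition, with 75.7% G and C at Map3k9 and 49% at Nr5a2.

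The rule used the SOX2 calls, so the values of the SOX2 peaks are given as a description. The fold of a peak is the authors' deposited ratio of coverage at the summit to local background. It was read within its own list, except in 1 count below that sets a replicate 2 value against replicate 1 folds. Members had a median fold of 3.87 in mitotic replicate 1 (quartiles 3.40 and 4.33), against 5.23 in regions that both mitotic libraries called and 3.99 in all 1740 regions called in replicate 1. Whole-read coverage at the summit could be recovered for 1390 members, with a median of 27 reads and quartiles of 24 and 32. In regions called in both mitotic libraries the median was 38.5 reads. Mitotic peaks were narrow in members, with a median of 309 bp against 488 bp in regions called in both.

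Members ranked between the other classes in asynchronous cells. To rank them, the best fold of each region was turned into a percentile within each asynchronous list, and the mean of these 2 percentiles was called its strength. Its median was 80.2 in members, 94.5 in regions that both mitotic libraries called and 60.4 in regions called in neither. In asynchronous replicate 1 the median fold was 7.72 in members, 16.1 in regions called in both and 5.19 in regions called in neither. In asynchronous replicate 2 it was 7.01, 13.8 and 4.85 in the same order. The strongest decile of regions held 294 members (21.1%), against 10.0% of all regions, and the weaker 5 deciles together held 291. Off chromosome 18, members were 0.537% of the regions in the weakest decile and 5.62% in the strongest. Members were thus found at all strengths but leaned towards strong regions. Members also lay between these classes in width, with a median of 1427 bp against 1710 bp in regions called in both and 643 bp in regions called in neither.

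**Figure D1:**
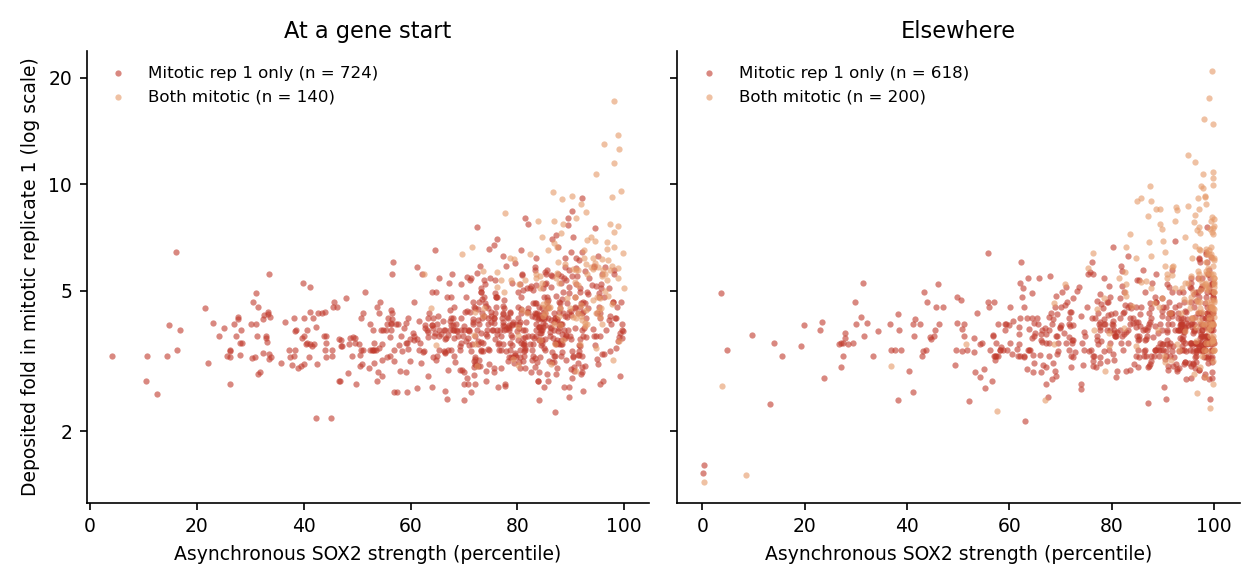
Deposited fold in mitotic replicate 1 (log scale) against asynchronous SOX2 strength (percentile), one point per region off chromosome 18, for regions within 1 kb of a gene start (left) and elsewhere (right). Members (red) are found at all strengths but lean towards high strength, with a median fold of 3.87. Regions called in both mitotic libraries (orange) crowd at high strength with a median fold of 5.23.

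The mitotic lists differed in the background and depth estimated from their peaks. Read totals were not used, so these estimates are no direct measure of sequencing depth. The genome-wide background was 5.47 reads in mitotic replicate 1 and 2.92 reads in mitotic replicate 2, and the estimated depth per 100 bp was 2.62 and 1.64. At this background the weakest peak had a fold of 2.94 in mitotic replicate 1 and 4.08 in mitotic replicate 2. A fold under 4.08 in mitotic replicate 1 was found in 899 members (64.6%), against 77 of the regions called in both (22.1%). This count sets a value of the replicate 2 list against folds of the replicate 1 list. The value is no threshold of the replicate 2 list, which called regions down to a fold of 1.34 where background was higher. A region with no call has no value in the second list, so a lower occupancy there and a signal below its threshold cannot be told apart. When the mitotic replicate 1 list was shortened to its strongest 408 peaks, the length of the replicate 2 list, 201 members were left.

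Peaks of mitotic replicate 1 were also ordered by fold. Of its 408 peaks of highest fold, 201 lay in members (49.3%) and 206 in regions called in both. Of the next 408, 311 lay in members (76.2%) and 83 in regions called in both. Of the 408 after those, 353 lay in members (86.5%) and 39 in regions called in both. In all, 1499 of its 1976 peaks lay in members, and 1293 members held a single peak.

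At the edges of the rule, the lowest −log10 q in mitotic replicate 1 among members was 1.33, at the start of Plcg1 (phospholipase C gamma 1). The next lowest were 1.35 near Foxf1, 1.46 at Zfp536, and 1.52 both at Kif18b, a mitotic kinesin, and near Rps6ka1. Members nearest to a mitotic replicate 2 peak lay 478 bp from it at Hnrnpu, 621 bp near Pou5f1, 870 bp near Abt1, 909 bp at Zmiz1 and 961 bp near Zfp239. Only 5 members had such a peak within 1 kb, and 24 within 10 kb. Just outside the rule were regions called in mitotic replicate 2 with a low −log10 q. It was 1.48 with Btn2a2 as the nearest gene, 14.4 kb away, and 1.89 with Zfp804a as the nearest, 200 kb away. It was 2.22 near Cd24a, 2.39 at Peli1 and 2.43 at Ccdc6.

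Among single members, Spin1, which encodes a reader of histone H3 trimethylated at lysine 4, had the member of highest mitotic fold, at chr13:51100287-51102067. Its fold was 9.14 in mitotic replicate 1, with 83 reads at the summit, and no peak was called in mitotic replicate 2. In the asynchronous lists the region had folds of 12.3 and 11.8. Adnp, a partner of the remodeller CHD4, followed with a fold of 8.41 and 61 reads in mitotic replicate 1, against 11.8 and 10.1 in the asynchronous lists. Map3k9, a kinase of the JNK cascade, and H4c11, a histone H4 gene, had folds of 8.04 and 51 reads each in mitotic replicate 1. Mesd, a chaperone of Wnt co-receptors, had 7.73, and Trp53inp2, an autophagy regulator, had 7.68. Arhgdia had 7.58, Ctxn1 had 7.52 and Zfand3 had 7.20. All 9 of these lay at a gene start.

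The other of the 10 highest members, at chr8:90669308-90671604, was the exception. It lay away from starts, with Chd9, a chromodomain helicase, as the nearest gene, 157 kb away. The mitotic replicate 1 fold was 7.58, and the asynchronous folds were 22.1 and 26.9. Among the members within 1 kb of an outer gene boundary, which leaves out Spin1 and Mesd, Gramd4 (7.10), Clcn4 (7.01) and Zfp775 (7.01) completed the 10 highest mitotic replicate 1 folds.

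The strongest members in asynchronous cells lay elsewhere. Tnfrsf19, a receptor of the tumour necrosis factor family, lay 4.86 kb from the strongest, which had asynchronous folds of 40.1 and 54.9. In mitotic replicate 1 the fold there was 3.56, with 22 reads. Members with Sgcd, Jam2, Ube2d2a, Zmynd8, Apol7a, Syk, Pcdh1 and Med13l as the nearest gene came next, with 24 to 33 reads in mitotic replicate 1. The distance ran from 0 kb for Sgcd and Zmynd8 to 31.0 kb for Apol7a, 36.3 kb for Pcdh1 and 289 kb for Med13l. The last of the 10, at chr11:69579944-69583254, covered the shared start of Trp53, the p53 tumour suppressor gene, and Wrap53, with 27 reads. It was the only one of these 10 counted at a gene start, although those near Ube2d2a and Pcdh1 lay on chromosome 18, where no starts were used here.

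Most members lay at a gene start. A region was counted at a start when it lay within 1 kb of the start of a protein-coding gene, and chromosome 18 was left out of these counts. Of all regions, 14.4% lay at a start. Among members it was 724 of 1342, or 53.9% (95% Wilson interval 51.3 to 56.6). In regions called in both mitotic libraries it was 140 of 340, or 41.2% (36.1 to 46.5), and in regions called in neither it was 13.1% (12.8 to 13.4). Members thus exceeded regions called in both by 12.8 percentage points, before strength was taken into account, and regions called in neither by 40.8. Intervals cover counting error over regions only, and neighbouring regions are not independent. No test over regions was run.

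Strand made it possible to tell starts from the other end of genes. Within 1 kb of a 3′ end lay 4.55% of members, 3.82% of regions called in both, 3.05% of regions called in neither and 3.1% of all regions. Away from both ends but inside a gene lay 10.8% of members, against 15.3% of regions called in both and 36.8% of regions called in neither, with 36% over all regions. Outside genes and away from their ends lay 23.1% of members, against 30.9% and 44.2% in the same order and 43.5% of all regions. With either outer boundary of a gene counted and chromosome 18 included, 59.5% of members lay at a gene end, against 48.4% of regions called in both, 16.7% of regions called in neither and 18.1% of all regions. Of the 724 members at a start, 88 were not within 1 kb of an outer boundary of any gene in the gene table. Divergent starts on both strands were found at 5.51% of members, against 3.82%, 0.910% and 1.05% for both, neither and all regions. Starts of non-coding genes lay within 1 kb of 11.8% of members, against 12.4% of regions called in both, 4.26% of regions called in neither and 4.52% of all regions.

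**Figure D2:**
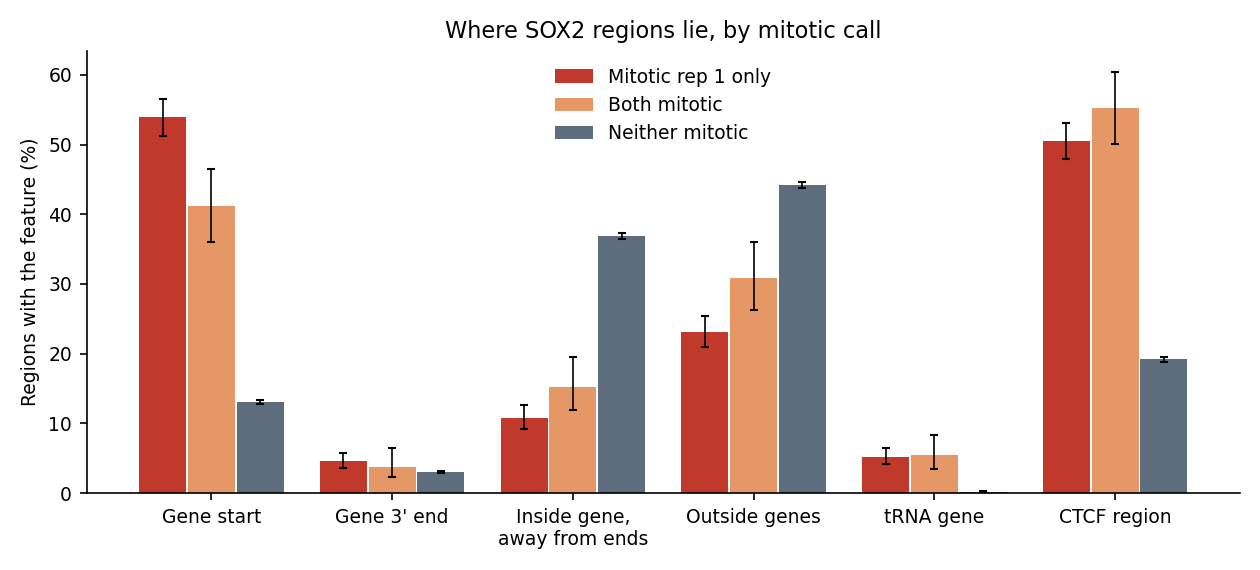
Share of regions with each feature (%), with 95% Wilson intervals, for members (red), regions that both mitotic libraries called (orange) and regions that neither called (grey). Gene starts take 53.9% of members, 41.2% of regions called in both and 13.1% of regions called in neither, while the share outside genes runs the other way; chromosome 18 enters the tRNA and CTCF shares only.

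The difference in width between the classes bears on any count of overlaps. When the asynchronous summit itself had to lie within 1 kb of a start, the share of members was 49.7%. In the widest decile of regions, from 1396 bp upward, 48.4% of 684 members lay at a start, against 19.7% of regions called in neither. With the summit rule in that decile the shares were 41.2% and 15.2%. Members were above regions called in neither in 9 of 10 width deciles by either rule. The exception was the second narrowest decile, with 1 of 14 members at a start (7.14%) against 8.68% of regions called in neither. Only 6 deciles held 20 or more members, and members were above in all 6 by either rule. The narrower deciles held between 6 and 16 members each, so their shares are loose.

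Asynchronous strength was looked at in the same way. Off chromosome 18, in each of 10 deciles of strength, members lay at a start more often than regions called in neither. The member share ran between 21.4% and 68.5% and that of regions called in neither between 3.25% and 28.9%. The strongest decile gave the lowest share in both, with 21.4% of 280 members and 3.25% of regions called in neither. Of the regions that both mitotic libraries called, the strongest decile had 57 of 196 regions at a start (29.1%), against 44 of 75 (58.7%) in the decile below it. Regions called in both fell mostly in those top deciles. Within the 4 strongest deciles, which held most regions called in both, members were not above them throughout. Members were lower in the strongest decile, with 21.4% against 29.1%, and in the seventh, with 68.4% against 70.6% of 17 regions called in both. They were higher in the eighth, with 65.0% against 60.0%, and in the ninth, with 60.4% against 58.7%. The Wilson intervals overlapped in all 4 of these deciles.

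**Figure D3:**
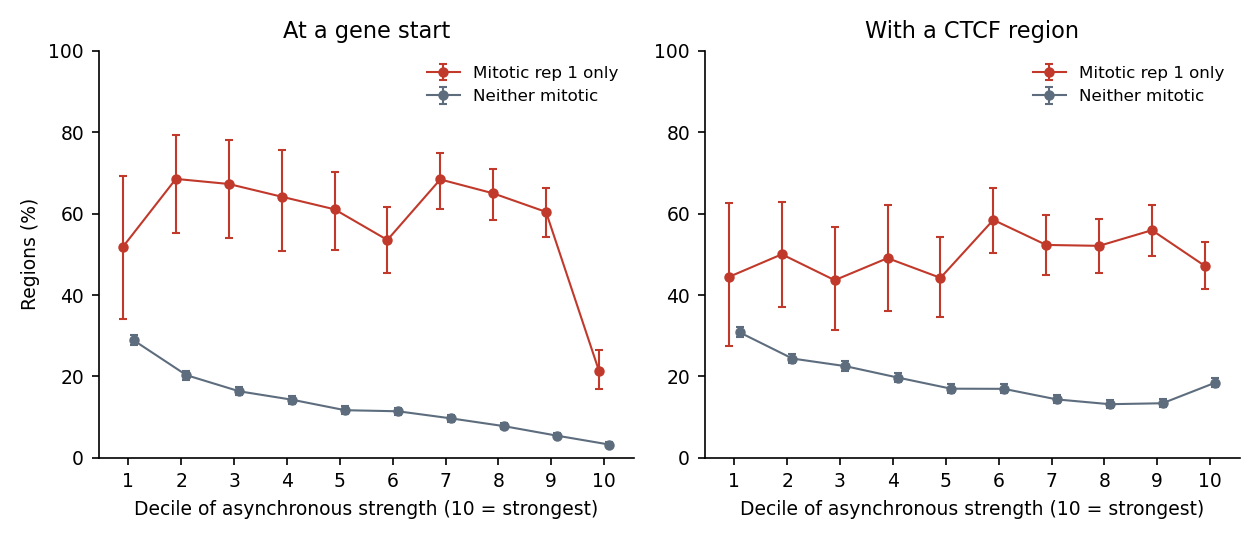
Share of regions (%) at a gene start (left) and with a reproducible CTCF region (right) in deciles of asynchronous strength, for members (red) and regions called in neither mitotic library (grey), with 95% Wilson intervals. Members lie above regions called in neither in all 10 deciles of both panels, and the share at starts falls to 21.4% of members in the strongest decile.

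SOX2 values of members at starts and elsewhere are given as a description only, since the rule used these peaks. Every member was called in mitotic replicate 1, so its mitotic values have a lower limit. Strength is a percentile and fold a ratio, so their differences are not on 1 scale. Median strength was 76.2 in members at a start and 85.4 in members elsewhere. The median fold in mitotic replicate 1 was 3.87 at a start and 3.81 elsewhere, with 27 reads at the summit in both. In the whole lists, 47.9% of peaks lay at a start in mitotic replicate 1 and 32.9% in mitotic replicate 2. In the asynchronous lists it was 14.6% and 14.3%. Members held 1499 of the 1976 mitotic replicate 1 peaks, so the share of that list mostly repeats theirs.

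Summits were then placed relative to the start. These regions were chosen within 1 kb of a start, so summits close to it follow in part from that choice. Of the 724 members at a start, 681 had the mitotic replicate 1 summit within 1 kb, 140 of them within 100 bp (19.3%). The asynchronous summit lay within 100 bp in 17.4% of these members, against 20.9% of regions at a start called in neither. The median position in members was 24 bp downstream of the start for the mitotic summit and 23.5 bp upstream for the asynchronous summit. Over all members, the mitotic summit fell within 100 bp of the asynchronous replicate 1 summit in 57.7% and of the replicate 2 summit in 54.1%. In regions called in neither, asynchronous summits at starts lay at a median of 28 bp upstream.

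**Figure D4:**
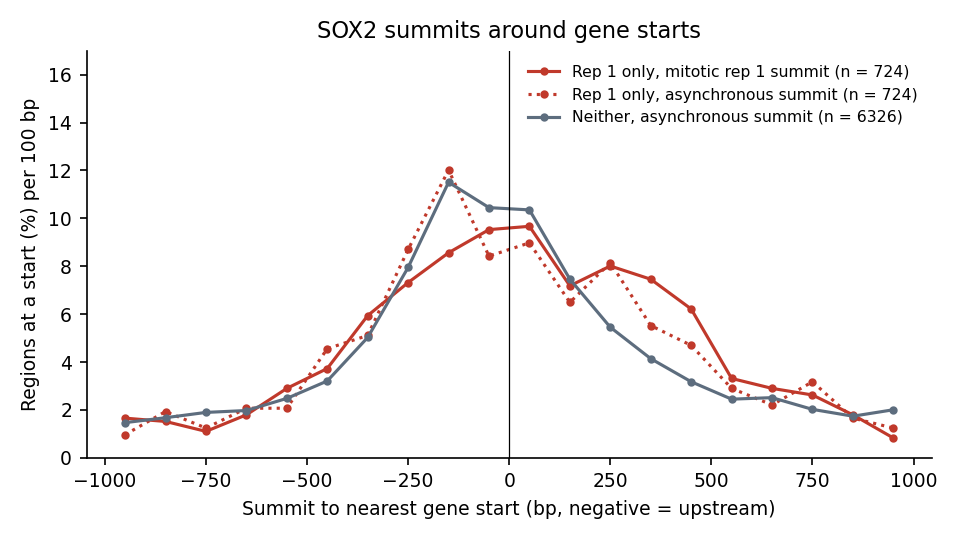
Position of the SOX2 summit relative to the nearest gene start (bp, negative is upstream), as % of the regions at a start per 100 bp bin, for the mitotic replicate 1 summit of members (red, solid), their asynchronous summit (red, dotted) and the asynchronous summit of regions called in neither (grey). All regions shown were chosen within 1 kb of a start. The curves peak near the start, and 362 of 724 members have the mitotic summit up to 1 kb downstream against 319 upstream.

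Genes with a member at the start numbered 795, or 4.54% of the 17492 protein-coding genes with a start in the table. Promoter windows touched by a member were rich in CpG, which marks the promoters of widely expressed genes. With at least 50% G and C and an observed to expected CpG ratio of at least 0.6, 85.3% of 864 windows at members were CpG-rich. It was 84.7% at regions called in both, 70.2% at regions called in neither and 44.9% over all windows. At least one of the SOX-type motifs was present in 30.8% of windows at members (27.8 to 33.9), against 42.9% (35.7 to 50.5) at regions called in both, 23.5% at regions called in neither and 25.7% over all windows. Among CpG-rich windows alone, it was 29.4% at members, against 40.3% at regions called in both, 18.7% at regions called in neither and 15.1% over all. Among the other windows it was 38.6% of 127 at members (30.6 to 47.3) and 57.7% of 26 at regions called in both (38.9 to 74.5). There it was 34.9% at regions called in neither and 34.3% over all, both within the interval of members. Both readings of each motif were searched and a window was counted once. A match is a description and not a binding site.

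tRNA genes, which RNA polymerase III transcribes, were close to many members. Within 1 kb of a tRNA gene lay 72 members (5.18%, 4.13 to 6.47), against 5.44% of regions called in both, 0.226% of regions called in neither and 0.397% of all regions. Members made up 72 of the 205 regions near a tRNA gene (35.1%), and 119 of the 408 tRNA genes in the table were near a member. Chromosome 13 held 32 of these 72 members, and 105 of the 408 tRNA genes. With regions near tRNA genes left out, 55.9% of members lay at a gene start. Of the tRNA gene members, those of highest fold in mitotic replicate 1, named after their values were seen, were at Rab11a (6.71, 44 reads) and near Psma3 (6.38, 46 reads) and Mrpl58 (5.70, 41 reads).

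Most members stood alone, with 1113 of the 1391 having no other member within 50 kb and 278 having at least 1. The same count was not made for other regions. The largest group, 15 members at chr13:21906644-22051555, held 13 near tRNA genes and lay beside Zfp184, Pom121l2, Prss16 and histone genes such as H4c9. The next, 10 members at chr13:23411370-23531890 near Abt1, Btn1a1 and Btn2a2, had 9 near tRNA genes. All 6 members of the group at chr13:21160032-21276856 near Trim27 were near tRNA genes. Outside chromosome 13, 5 members at chr11:97661156-97799914 lay around Mllt6, Pcgf2 and Rpl23, 4 of them at starts. The genes with most members within 50 kb were Zfp184 (12), Pom121l2, Btn1a1 and Btn2a2 (8 each), with H2bc9 and H3c8 at 6 each.

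CTCF regions were common among members. A CTCF region was called reproducible when both asynchronous CTCF libraries had a peak in the merged region. One overlapped 50.5% of members (47.9 to 53.2), against 55.3% (50.1 to 60.4) of regions called in both, 19.2% of regions called in neither and 20.3% of all regions. Members were 4.76 percentage points below regions called in both, with overlapping intervals, and 31.3 points above regions called in neither. In each of 10 deciles of strength members were above regions called in neither, with 43.6% to 58.5% against 13.2% to 30.8%. In the widest decile of regions the share was 56.7% of members, against 33.0% of regions called in neither. When summits of SOX2 and CTCF had to lie within 100 bp, 21.3% of members counted. With a fold of at least 5 required in every list, CTCF lists included, the share was 23.0% of 191 members, 2.14 points above regions called in both.

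Starts and CTCF regions were then crossed. Of regions at a start with CTCF, 14.2% were members (12.9 to 15.6), against 7.73% of those at a start without CTCF. Away from starts, 4.22% of regions with CTCF were members, and 0.849% of those without it. CTCF regions were about as frequent in members at a start (50.8%) as in members elsewhere (51.6%), whereas among regions called in neither they were at 34.1% of those at a start and 16.9% of those elsewhere.

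The CTCF libraries gave a comparison between mitotic and asynchronous cells that the rule did not use. A CTCF peak was found in 27.2% and 18.7% of members in the mitotic CTCF libraries, against 61.4% and 61.7% in the asynchronous CTCF libraries. The groups did not overlap. The mean was 23.0% ± 6.05 in mitotic and 61.5% ± 0.203 in asynchronous libraries (SD, n = 2 each), a difference of −38.6 percentage points. A two-sided exact permutation test over the 4 libraries gave p = 0.333, the smallest p that 2 libraries against 2 can give. Over all regions the shares were 8.34% and 6.33% in the mitotic libraries and 23.5% and 23.6% in the asynchronous libraries. Among members with a reproducible CTCF region, off chromosome 18, both mitotic CTCF libraries kept a peak in 31.3%, against 31.0% of such regions called in both for SOX2 and 29.2% of those called in neither, with overlapping intervals. Exactly one mitotic CTCF library kept it in 18.6% (15.9 to 21.7) of these members, against 10.2% (6.60 to 15.3) of those called in both and 10.5% of those called in neither.

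**Figure D5:**
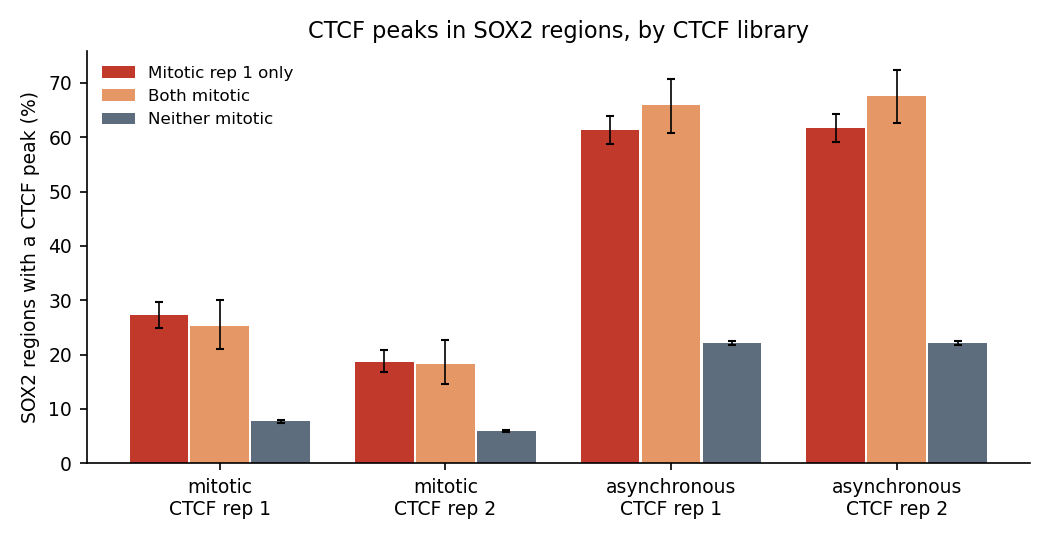
Share of SOX2 regions with a CTCF peak (%) in each CTCF library, mitotic left and asynchronous right, for members (red), regions called in both mitotic SOX2 libraries (orange) and in neither (grey). Error bars are 95% Wilson intervals. Members have a peak in 27.2% and 18.7% in mitotic and in 61.4% and 61.7% in asynchronous libraries.

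All 4 CTCF libraries had a peak in 16.0% of members, against 17.2% of regions called in both, 5.62% of regions called in neither and 5.97% of all regions. The members of highest mitotic SOX2 fold among these were at Spin1, Adnp, H4c11, Arhgdia and Ctxn1. None of the 4 libraries had one in 28.0% of members, against 72.6% of all regions, with Mesd, Trp53inp2 and Zfand3 among them.

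Genes of 12 lists on pluripotency, signalling, chromatin, differentiation and housekeeping were looked up within 50 kb of members. The fold given for a list gene is that of its highest member within this distance, which may lie at another gene. Of the 256 list genes with a SOX2 region, 88 had a member (34.4%), against 17.3% of the 18766 protein-coding genes with a region. At the start itself, 34 of 188 list genes had a member, against 4.54% of all protein-coding genes. List genes were picked with these data known and many have several regions nearby, so the shares are no evidence for a theme.

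All 30 genes of the pluripotency list had a SOX2 region within 50 kb; peak lists hold no expression with which to check the cell type further. In this list 14 of 30 genes had a member, and 18 of its 346 regions were members (5.20%, 3.32 to 8.07), against 2.69% of all regions. Fbxo15, a target of OCT4 and SOX2, had the highest fold in mitotic replicate 1 with 4.91 and 31 reads. Mycn, a MYC family factor, followed with 4.64 and 29 reads, at chr12:12941034-12944361. Pou5f1, which encodes OCT4, had 2 members, the higher at chr17:35501758-35503373 with a mitotic fold of 4.55 and asynchronous folds of 10.9 and 6.72. A further region near Pou5f1 was called in both mitotic libraries. Jarid2 had a fold of 4.34, Tet1 4.14, Nr5a2 4.13, Sall4 3.93, Klf4 3.71, Nanog 3.66 and Sox2 3.40. The member counted for Jarid2 lay 49.7 kb from it. The member counted for Tet1 lay at the start of Ccar1, 11.1 kb from Tet1. Sox2, Klf4, Nr5a2 and Mycn had a member at their start. The Sox2 region at chr3:34647295-34649203 had 21 reads in mitotic replicate 1 and asynchronous folds of 6.42 and 4.87.

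Signalling genes followed. In the FGF-ERK pathway, which drives exit from the naive state, 9 of 24 genes had a member, with Map2k2 (5.36), Etv5 (4.61) and Spred2 (3.62) at their starts. Dusp4, a phosphatase of MAP kinases, had 4.60, and Spry2, an inhibitor of the pathway, had 3 members, 1 of them at its start, with a highest fold of 4.33. In the Nodal, LIF and BMP lists 11 of 25 genes had one. Lefty2 and Lefty1, which inhibit Nodal, shared the highest at 5.41 in mitotic replicate 1, with asynchronous folds of 19.1 and 21.2. This member lay 2.89 kb from Lefty2 and 44.8 kb from Lefty1. Nodal itself had 3.71 and Socs3, a feedback inhibitor of LIF signalling, 3.99, both at the start. Members were 6.17% of regions near the FGF-ERK genes and 6.86% near the Nodal, LIF and BMP genes. Over all regions it was 2.69%.

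Among chromatin genes, 9 of 23 of the Polycomb and trithorax list had a member, with 6 at the start. These were Bmi1 (4.95) and Rnf2 (3.70) of the first Polycomb complex, Ezh2 (4.47) and Mtf2 (3.59) of the second, Kdm2b (3.56), which binds CpG islands, and the methyltransferase Kmt2a (3.71). Of the regions near this list, 6.39% were members. In the DNA methylation list 9 of 12 genes had one, and 14 of 120 regions were members (11.7%, 7.08 to 18.6), against 2.69% of all regions. Within 50 kb this share was the highest of the 12 lists, and that of the cohesin, condensin and CTCF list was the lowest (2.31%, 0.788 to 6.57). The order depended on the distance. Within 10 kb the DNA methylation list and the Nodal, LIF and BMP list both had 10.5%, and ribosomal proteins had the lowest share (3.66%). Dnmt3l, a cofactor of de novo methylation, led the DNA methylation list with 4.64 in mitotic replicate 1 and asynchronous folds of 28.4 and 28.1. Uhrf1, which guides maintenance methylation, had 3 members, and Tdg, a glycosylase of demethylation, had 4.23 at its start. Of cohesin, condensin and CTCF genes, 3 of 22 had a member (Pds5b, Ctcf and Smc4), and Ctcf had it at its start with a fold of 3.58. The member counted for Pds5b lay at the start of N4bp2l2, 7.53 kb from Pds5b. That counted for Smc4 lay at the start of Trim59, 9.37 kb from Smc4.

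Regulators of other fates and housekeeping genes were also looked up. In the neural list 9 of 19 genes with a region had a member, with Neurog2 (4.33), Zic1 (4.17), Hes5 (3.66) and Meis1 (3.66) at their starts. In the mesoderm and endoderm list 2 of 14 had one, Hnf4a (4.34), away from its start, and Gata6 (3.40), on chromosome 18 and so not counted for starts. In the SOX family it was 7 of 18, with Sox11 (2.67) at its start beside Sox2. Mitotic kinases and checkpoint genes had 6 of 22, with Ttk (3.79), a spindle checkpoint kinase, at its start. For the other mitotic genes with a member, the one of highest fold lay 18.9 to 42.1 kb away. Ribosomal protein genes had 8 of 40, with Rpl13a, Rpl23 and Rps7 at their starts, and glycolysis genes 5 of 17, with Pkm (4.33) and Eno1 (3.56) at theirs. Members were 6.25% of regions near neural genes, 4.17% near mesoderm and endoderm genes and 6.62% near SOX genes. They were 6.90% near mitotic genes, 4.40% near ribosomal protein genes and 6.02% near glycolysis genes, against 2.69% of all regions. Of all protein-coding genes with a region, 17.3% had a member within 50 kb.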

How the data were processed

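The lists of 8 libraries were read, 2 each for mitotic SOX2, asynchronous SOX2, mitotic CTCF and asynchronous CTCF, out of 86 samples in the series. The build was mm10 and the tools were MACS2 2.1.1.20160309, BWA 0.7.17, SAMtools and CASAVA 1.4, per the submitters' processing notes, which state no options or control libraries here. The authors deposited 1 list per library, with a fold (a ratio of summit coverage to local background), −log10 p-values and −log10 q-values, a display score that was not used, and a summit position. Regions were merged and overlapped in Python 3.11.15 with numpy 2.4.6, pandas 2.3.3 and scipy 1.17.1; figures were drawn with matplotlib 3.10.9.

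Coverage was solved from the deposited fold and −log10 p under the Poisson model of MACS2. It came out whole, within 0.002 reads, for 97.8% to 100% of peaks tried in each library. The lowest background divided by the shortest peak, which MACS2 sets to the fragment length by default, gave the depth per 100 bp. Read totals were not used here. The code was tested on simulated intervals and coverages, against bedtools 2.31.1.

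Genes came from RefSeq on GRCm38.p6, the assembly of mm10. Starts with strand covered 81.8% of protein-coding genes off chromosome 18; starts on chromosome 18 were not used here, and the planned gene ends (either boundary) are given beside starts. Shares have 95% Wilson intervals. No test was run over regions; the only test is an exact permutation over CTCF libraries. Replicate numbers pair libraries by label only.

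Members, lists and rules were chosen with earlier results of these data known. Named were the 10 members of highest mitotic fold, the 10 of highest asynchronous strength, the 5 of lowest −log10 q, the 5 nearest a replicate 2 peak, the 10 of highest mitotic fold at a gene end, the 5 of highest fold with all 4 CTCF libraries, the 5 genes with most members within 50 kb and up to 10 genes per list with a member; names beside tRNA genes and in the largest groups were chosen with their values in view. Alternatives, given at the end, covered overlap rules, thresholds, windows, distances and leaving out libraries. Added after the data were seen were gene starts, the mitotic summit at starts, deciles of strength and width, regions away from tRNA genes, and a −log10 q of at least 5 in mitotic replicate 1 alone.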

Additional observations from a re-analysis of the deposited data

How the results depend on the processing

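The number of members followed the thresholds. It was 812 with a −log10 q of at least 5 in every list, 764 with that limit in mitotic replicate 1 alone, 191 with a fold of at least 5 in every list and 201 with the mitotic replicate 1 list shortened to 408 peaks. Under the same settings 54, 53, 6 and 10 list genes had a member within 50 kb, against 88. A fold of at least 5 moved the share at a gene start to 60.6%, its excess to 23.7 points over regions called in both and 51.9 over regions called in neither, the share at a gene end to 62.3%, the share with a CTCF region to 23.0%, its difference to 2.14 points above regions called in both and 15.0 above neither, and the promoter motif share to 36.5%. The shortened list gave 58.9% at a start, 44.8 points over neither. A −log10 q of at least 5 in every list gave 41.5% with a CTCF region, 25.4 points over neither. CTCF and SOX2 summits within 100 bp gave 21.3%, 11.4 points over neither. A window of 2.5 kb gave 65.1% at a gene end. The asynchronous summit in the window gave 51.4% at a gene end and 49.7% at a start, 38.0 points over neither, and the mitotic summit gave 50.7% at a start.

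Mitotic SOX2 replicate 1 defines the members and was not left out, and without mitotic SOX2 replicate 2 no differences between classes could be had. Leaving out each of the other libraries where it entered a result gave 1438 to 1740 members, 51.4% to 53.8% at a start, 12.7 to 14.0 points over regions called in both and 39.9 to 40.5 over neither, 57.2% to 59.1% at a gene end, 46.2% to 61.7% with a CTCF region, −6.53 to −4.51 points against both and 28.3 to 39.5 over neither, 86 to 106 list genes, 30.8% to 35.0% of promoters with a motif, and a mitotic minus asynchronous CTCF difference of −42.8 to −34.3 points. With replicate number as a block, differences were taken within pairs, the mean was again −38.6 points and the exact sign-flip permutation p was 0.5, the smallest for 2 pairs. That difference was lower in mitotic libraries under all 16 alternatives run, down to −12.8 points with a fold of at least 5. The causes of these shifts were not tested. Whole-library read counts were not used here, so regions without a call have no value and no interval.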

Other observations

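Members had a median asynchronous strength of 80.2, against 96.2 in the 41 regions called in mitotic replicate 2 only. At a gene start lay 53.9% of members, against 6 of 40 regions of mitotic replicate 2 only off chromosome 18 (15.0%, 7.06 to 29.1). These shares were not matched for strength. The strongest decile held 25 of the 41 regions of mitotic replicate 2 only, and in that decile 21.4% of 280 members lay at a start. Of the regions of mitotic replicate 2 only, it held 1 of the 6 at a start and 23 of the 34 elsewhere. These counts are small. A reproducible CTCF region overlapped 50.5% of members, against 39.0% (25.7 to 54.3) of those 41 regions.

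The X chromosome held 6 members among 997 regions (0.602%), against 2.69% of regions over all chromosomes. Regions called in both were also few there, with 1 of 349 on X (0.287%), against 0.431% of members and 1.93% of all regions. Chromosome Y held 1 member among 5 regions. Of the mitotic replicate 1 peaks, 77 lay in no reproducible asynchronous region.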
